A study of Mus musculus with 12 samples.

Results

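The 35 genes described here are known as imprinted in the mouse: in at least some tissues or stages, one parental copy is expressed and the other is silenced. They were taken from a fixed list of names, with no measured value in the rule, though earlier results of these data were known. All 35 were found by symbol among the 54232 gene IDs of the count tables. They fall into 15 imprinted clusters, 8 of which hold 2 or more of the genes, and 16 lie on chromosome 7. As background, 16 are listed as expressed from the maternal copy and 19 from the paternal copy, which can differ by tissue. The reads were not split by parental copy, so every value below is the sum of both. Of the 35 genes, 34 passed the filter on low counts and were tested among 17721 genes, and Kcnq1, a potassium channel gene with 30 counts over the 12 libraries, did not.

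Bulk RNA was sequenced from mouse eye organoids at day 7 of culture, grown from an embryonic stem cell line that carries GFP at 1 allele of Rax, an eye field gene. All 12 libraries share this genotype and this single line. The 3 groups of 4 libraries were control organoids, organoids given 20 µM GNE-140, an inhibitor of lactate dehydrogenase, for 3 days (LDHi), and organoids given GNE-140 with 25 mM sodium L-lactate (LDHi+lactate, for which the labels state 12 h of lactate before the inhibitor). Libraries are numbered 1 to 4 in each group. The labelled cell type is eye organoid for replicates 1 and 2 (the first set). For replicates 3 and 4 (the second set) it is retina progenitors.

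Imprinted genes lie in clusters that are governed by differentially methylated control regions, whose DNA methylation is laid down in one germ line and then kept through cell division. Within a cluster a long noncoding RNA such as H19, Meg3, Airn or Kcnq1ot1 is often expressed from the copy on which the neighbouring protein-coding genes are silent. Several of the proteins act on growth of the embryo: Igf2 is a fetal growth factor, Igf2r a receptor that clears it, Grb10 an adaptor that restrains insulin signaling, Cdkn1c an inhibitor of the cell cycle and Plagl1 a zinc finger transcription factor. ZFP57, with its partner TRIM28, protects methylation at imprinted control regions and binds the methylated hexamer TGCCGC.

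Promoter windows from RefSeq (build GRCm38.p6, 300 bases each, from 250 before to 50 after a transcript start) were found for 26 of the 35 genes. The windows of 5 of the genes to which the results below return are shown. They are those of the paternally expressed Plagl1 and Mest and the maternally expressed Grb10, Meg3 and Rian. Windows lie at transcript starts and were not matched to the control regions. Where a gene had several windows, the one with most CpG dinucleotides is given, and capitals mark the hexamer TGCCGC on either strand (GCGGCA when read on the other strand).
Plagl1, chr10:13090582-13090881, plus strand: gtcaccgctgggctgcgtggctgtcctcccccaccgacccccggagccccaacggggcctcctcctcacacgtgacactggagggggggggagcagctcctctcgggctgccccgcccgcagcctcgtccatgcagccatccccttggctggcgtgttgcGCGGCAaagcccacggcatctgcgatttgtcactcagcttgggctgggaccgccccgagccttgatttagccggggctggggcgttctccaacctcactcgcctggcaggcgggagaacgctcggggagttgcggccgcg
Mest, chr6:30737800-30738099, plus strand: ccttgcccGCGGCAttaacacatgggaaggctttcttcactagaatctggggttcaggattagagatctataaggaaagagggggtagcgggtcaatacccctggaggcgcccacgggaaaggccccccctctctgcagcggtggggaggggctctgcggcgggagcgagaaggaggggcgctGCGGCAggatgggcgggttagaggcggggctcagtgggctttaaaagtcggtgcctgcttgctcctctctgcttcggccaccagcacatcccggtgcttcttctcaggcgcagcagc
Grb10, chr11:12037371-12037670, minus strand: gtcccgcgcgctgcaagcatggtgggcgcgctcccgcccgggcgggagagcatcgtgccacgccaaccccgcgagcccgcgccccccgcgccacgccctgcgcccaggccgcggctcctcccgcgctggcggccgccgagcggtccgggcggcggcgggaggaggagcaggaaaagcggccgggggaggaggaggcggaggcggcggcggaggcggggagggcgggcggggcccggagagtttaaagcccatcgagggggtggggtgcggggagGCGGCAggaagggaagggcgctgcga
Meg3, chr12:109540746-109541045, plus strand: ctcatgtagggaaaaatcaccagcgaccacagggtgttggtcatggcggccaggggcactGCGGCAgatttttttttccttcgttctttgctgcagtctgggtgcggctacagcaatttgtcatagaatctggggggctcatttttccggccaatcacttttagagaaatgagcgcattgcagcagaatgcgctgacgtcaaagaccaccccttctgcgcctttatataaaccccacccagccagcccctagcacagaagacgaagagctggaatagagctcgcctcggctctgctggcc
Rian, chr12:109603695-109603994, plus strand: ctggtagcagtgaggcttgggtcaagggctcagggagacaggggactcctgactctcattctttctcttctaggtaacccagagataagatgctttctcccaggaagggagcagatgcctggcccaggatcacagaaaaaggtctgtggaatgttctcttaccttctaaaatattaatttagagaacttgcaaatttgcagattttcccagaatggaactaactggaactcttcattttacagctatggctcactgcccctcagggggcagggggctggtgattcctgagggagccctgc
The Grb10 window held 45 CpG, that of Plagl1 26, that of Mest 17, that of Meg3 13 and that of Rian 0. The hexamer occurred 2 times in the Mest window, 1 time each in those of Plagl1, Grb10 and Meg3, and not in the Rian window. It was also absent from the CpG-richest windows of Igf2, Igf2r, Ascl2, Ndn and Ube3a, to which the results return but which are not shown. Over the CpG-richest window of each gene, 7 of the 26 imprinted genes with a window (26.9%) and 12.2% of 27025 genes held the hexamer, and the median was 14 CpG for the imprinted genes and 8 for all genes. H19, Rtl1, Peg10, Sgce, Cdkn1c, Kcnq1, Nespas, Impact and Dcn are named only.

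Total counts ranged from 22174002 to 48271386 per library, and no library within a group was a repeat of another. Libraries of the first set held 37284585 to 48271386 counts and those of the second set 22174002 to 29919036. Sequencing depth and set therefore cannot be told apart. Levels are given as CPM, read counts per 1000000 of the TMM-scaled library total, and levels of different genes are compared only per kilobase of annotated exon. Differences are log2 fold changes (log2FC) ± SE from edgeR with an adjusted p over all 17721 genes, called under 0.05. Since libraries of the same number deviated together, values from a model that also holds the number (the replicate block) are given wherever it changed a call. The 9 eye and anterior neural plate markers were all detected, with a summed level of 1201 to 1887 CPM, and so were the 9 markers of pluripotent cells, at 272 to 1178 CPM. The p-values of the treatment comparisons measure the spread between these libraries, which the study describes as 4 independent experiments.

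H19 and Mest led the imprinted genes. H19, a noncoding RNA, ranked 6 of 17713 genes by CPM per kilobase of exon and averaged 3090 CPM, with 1798 in the lowest and 4281 in the highest library. Per kilobase of exon the order was H19 (1256 CPM per kb), Mest (547), Nnat (393), Peg10 (202), Peg3 (74.5), Ndn (69.2) and Impact (55.5). The library ranges of Mest (386 to 701 CPM per kb) and Nnat (221 to 692) overlapped, as did those of Nnat and Peg10 (123 to 315) and those of Peg3 (46.3 to 107), Ndn (56.2 to 83.7) and Impact (39.2 to 71.7), and those of H19 (731 to 1740) and Nnat did not. Mest encodes a hydrolase-like protein, Nnat a small membrane protein, Peg10 a protein derived from a retrotransposon, Peg3 a zinc finger protein and Ndn a growth-restraining protein of neurons. In all, 32 of the 35 genes averaged at least 1 CPM and 11 averaged at least 100 CPM.

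**Figure D1:**
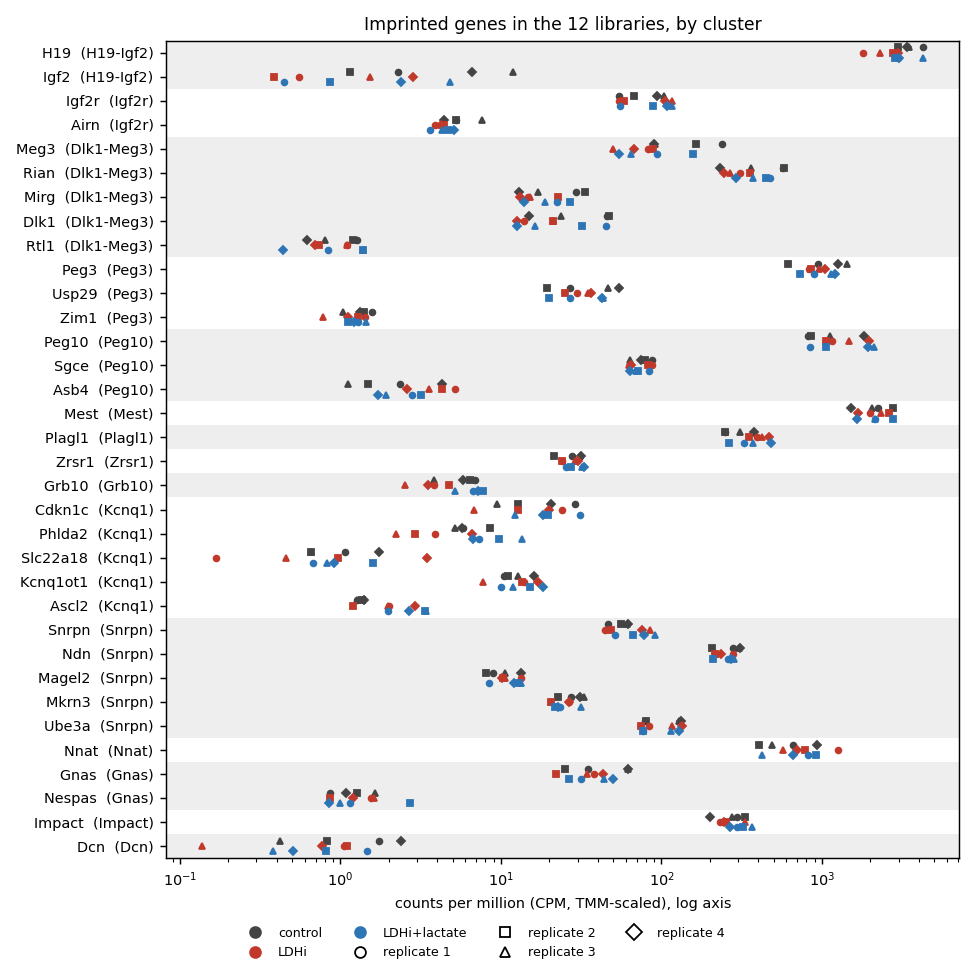
Level of the 34 imprinted genes tested in each of the 12 libraries, in CPM on a log axis, ordered by cluster with shaded bands marking neighbouring clusters. Colours give the group and symbols the replicate number. H19 lies between 1798 and 4281 CPM in every library and Igf2 between 0.388 and 11.9.

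Members of one cluster stood at very different levels. In the H19-Igf2 cluster H19 stood at 1256 CPM per kb and Igf2 at 0.521, and the Igf2 value may be a lower limit: 62.8% of its exon bases are shared with Gm49394 on the same strand, a gene listed with 0 counts, and how reads in the shared part were assigned is not stated. In the Dlk1-Meg3 cluster the noncoding RNAs Rian (20.6 CPM per kb), Meg3 (5.72) and Mirg (2.75) lay above the paternally expressed Rtl1 (0.151), whereas Dlk1, a Notch-like membrane protein, stood at 4.51. Igf2r stood at 9.13 CPM per kb and Airn, the noncoding RNA that overlaps it, at 1.32. In the Kcnq1 cluster Cdkn1c (8.84) and Phlda2 (5.81), a restrainer of placental growth, exceeded Ascl2 (1.28), a transcription factor of the trophoblast, Slc22a18 (0.646), a membrane transporter, and the noncoding Kcnq1ot1 (0.142). In the Peg10 cluster Sgce stood at 6.99 CPM per kb and Asb4, a SOCS box protein, at 0.731. In the Snrpn cluster the order was Ndn, Snrpn (29.6 CPM per kb), Mkrn3 (10.1), Ube3a (4.95) and Magel2 (2.38). Snrpn encodes a splicing protein and shares 27.3% of its exon bases with other genes on the same strand and 6.86% with genes on the opposite strand. Ube3a, a ubiquitin ligase, shares 27.3%, all on the opposite strand. Whether the counting used strand is not stated, so values of Mest, Cdkn1c, Ube3a, Gnas and Nespas, which share 22% to 38.5% of their exon bases with genes on the opposite strand, may include reads of those genes or lack reads shared with them.

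The first comparison asks how the imprinted genes stood when lactate dehydrogenase was inhibited. With the treatment alone in the model, 0 of 34 genes were called, against 3.09% of all genes (547 of 17721), and 7 of the 34 had an unadjusted p under 0.05. DESeq2 also called 0 of 34, against 7.69% of all genes. With the replicate block, Plagl1 rose and Igf2, Grb10, Meg3 and Rian fell, which is 5 of 34 (14.7%) against 19.9% of all genes, of which 9.85% rose and 10.1% fell. The median log2FC of the 34 genes was -0.15 (all genes 0.01), and 35.3% lay above 0 (all genes 51.5%). In bulk RNA a smaller number of cells of a type and less RNA per cell cannot be told apart.

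Plagl1 held 249, 247, 309 and 377 CPM in control replicates 1 to 4, 396, 351, 425 and 469 in LDHi and 325, 262, 372 and 478 in LDHi+lactate. LDHi was higher than control in each of the 4 replicate numbers, while the groups overlapped, since control replicate 4 exceeded LDHi replicate 2. The log2FC was 0.47 ± 0.18 (adjusted p = 0.206) and with the block 0.49 ± 0.07 (adjusted p = 0.0012). Without any 1 replicate number the blocked adjusted p stayed between 0.00318 and 0.015.

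Igf2 held 2.27, 1.15, 11.9 and 6.58 CPM in control replicates 1 to 4, 0.552, 0.388, 1.52 and 2.84 in LDHi and 0.443, 0.864, 4.84 and 2.4 in LDHi+lactate. Each LDHi library lay below the control of its number, and the groups overlapped because the numbers differed widely, with replicates 3 and 4 above 1 and 2 in every group. The log2FC was -2.07 ± 0.89 (adjusted p = 0.258) and with the block -1.92 ± 0.36 (adjusted p = 0.00456). In replicates 1 and 2 alone it was -1.87 and in 3 and 4 alone -2.09. The Igf2 total was 1055 counts over the 12 libraries. Beside it, 5 of 10 mesenchyme markers were called lower in LDHi and 0 higher (8 lower with the block), with a median log2FC of -3.45, and their summed level was 183 to 1073 CPM in control and 115 to 174 in LDHi. None of these 10 markers was under 1 CPM in all libraries, and their part in the Igf2 result was not tested. Dcn, an imprinted gene of the extracellular matrix, stood at 0.422 to 2.4 CPM in control and 0.138 to 1.1 in LDHi, with a log2FC of -0.78 ± 0.62 (adjusted p = 0.624).

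In the Dlk1-Meg3 cluster the noncoding RNAs Meg3 and Rian were called lower. Meg3 held 238, 165, 91.5 and 89.4 CPM in control, 82.6, 88.7, 50 and 67.7 in LDHi and 93.6, 156, 64.3 and 54.4 in LDHi+lactate. Every LDHi library lay below every control library. The log2FC was -1.01 ± 0.37 (adjusted p = 0.177) and with the block -0.94 ± 0.20 (adjusted p = 0.00835, at most 0.049 without 1 replicate number). Rian, the host of many small nucleolar RNAs, held 569, 579.8, 360.1 and 230 CPM in control, 307, 357, 267 and 247 in LDHi and 478, 448, 374 and 293 in LDHi+lactate. Replicates 1 and 2 were far lower in LDHi than in control, and replicate 4 was slightly higher. The log2FC was -0.56 ± 0.26 (adjusted p = 0.302) and with the block -0.49 ± 0.13 (adjusted p = 0.0232), a call lost without replicate 1, 2 or 3 (adjusted p 0.0908 to 0.136). With the block, Mirg had a log2FC of -0.43 ± 0.14 (adjusted p = 0.0555) and Dlk1 one of -0.78 ± 0.27 (adjusted p = 0.0683). Dlk1 held 46, 47.1, 23.6 and 14.9 CPM in control and 13.9, 21.2, 21.2 and 12.6 in LDHi, so its values were far apart in replicates 1 and 2 and close in 3 and 4. Rtl1, at 0.439 to 1.38 CPM over the libraries, had a log2FC of -0.10 ± 0.31 with the block.

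Grb10 held 6.92, 6.42, 3.8 and 5.84 CPM in control, 3.82, 4.76, 2.53 and 3.53 in LDHi and 6.69, 7.78, 5.18 and 7.23 in LDHi+lactate. LDHi was the lowest of the 3 groups in every replicate number, and every LDHi+lactate library lay above every LDHi library. The log2FC of LDHi against control was -0.65 ± 0.24 (adjusted p = 0.189) and with the block -0.65 ± 0.14 (adjusted p = 0.00826, and 0.0718 without replicate 1). H19, named after its values were seen, held 4281, 2992, 3486 and 3410 CPM in control and 1798, 2757, 2287 and 2979 in LDHi. Every LDHi library was below every control library, and the log2FC was -0.53 ± 0.18 (adjusted p = 0.138, with the block 0.0565). Asb4, at 1.11 to 5.21 CPM over the libraries, had a log2FC of 0.77 ± 0.39 (adjusted p = 0.364), and Slc22a18, at 0.168 to 3.46 CPM, one of 0.29 ± 0.71 (-0.13 ± 0.58 with the block). Meg3 and H19 were the 2 of 34 genes (5.88%) whose LDHi and control libraries did not overlap, against 9.67% of all genes.

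**Figure D2:**
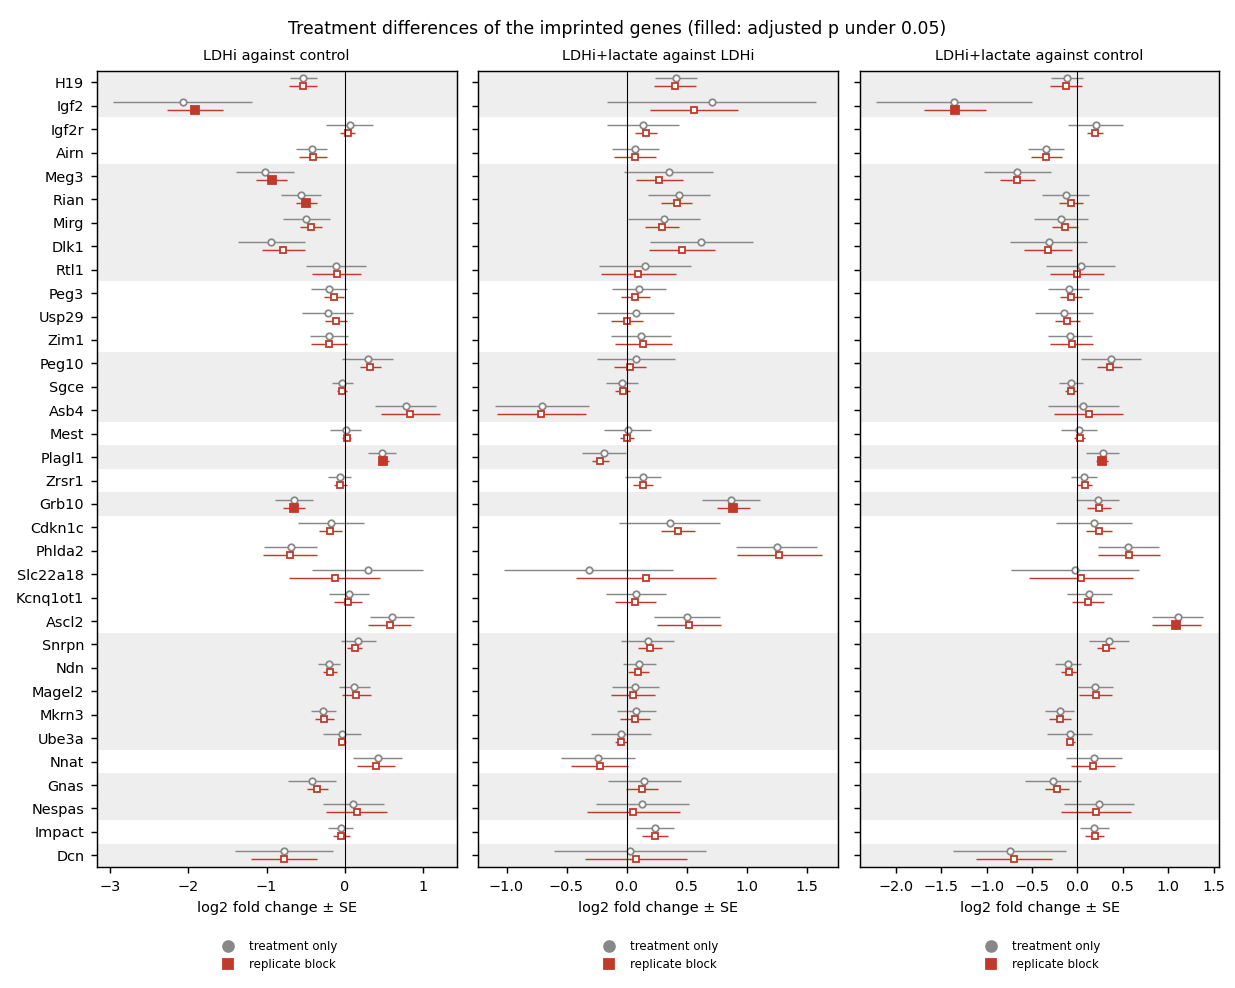
Log2 fold change ± SE of the 34 imprinted genes in the 3 treatment comparisons, with the treatment alone in the model (grey circles) and with the replicate block (red squares); filled symbols mark an adjusted p under 0.05, and the horizontal axes differ between panels. No circle is filled, and 5, 1 and 3 squares are filled from the left to the right panel.

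The second comparison asks what lactate did in the presence of the inhibitor. With the treatment alone in the model, 0 of 34 imprinted genes and 0% of all genes were called, with 3 of the 34 and 603 of all genes at an unadjusted p under 0.05. By DESeq2 0 of the 34 and 0.31% of all genes were called. With the block Grb10 rose, the only 1 of 34 called (2.94%, against 0.638% of all genes), with a log2FC of 0.89 ± 0.14 (adjusted p = 0.0248). That call was lost when any 1 replicate number was left out (adjusted p 0.0925 to 0.153, log2FC 0.84 to 0.96). The 113 calls over all genes became 3 to 114 in those fits. Phlda2, named after its values were seen, held 3.89, 2.93, 2.21 and 6.64 CPM in LDHi and 7.27, 9.69, 13.6 and 6.73 in LDHi+lactate. Its libraries did not overlap, and replicate 4 differed least. The log2FC was 1.25 ± 0.34 (adjusted p = 0.773, with the block 0.184). Grb10 and Phlda2 were the 2 of 34 genes (5.88%) without overlap, against 2.1% of all genes. The median log2FC of the 34 genes was 0.13 (all genes -0.01), and 82.4% lay above 0 (all genes 48.5%). These values share the LDHi libraries with the first comparison.

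**Figure D3:**
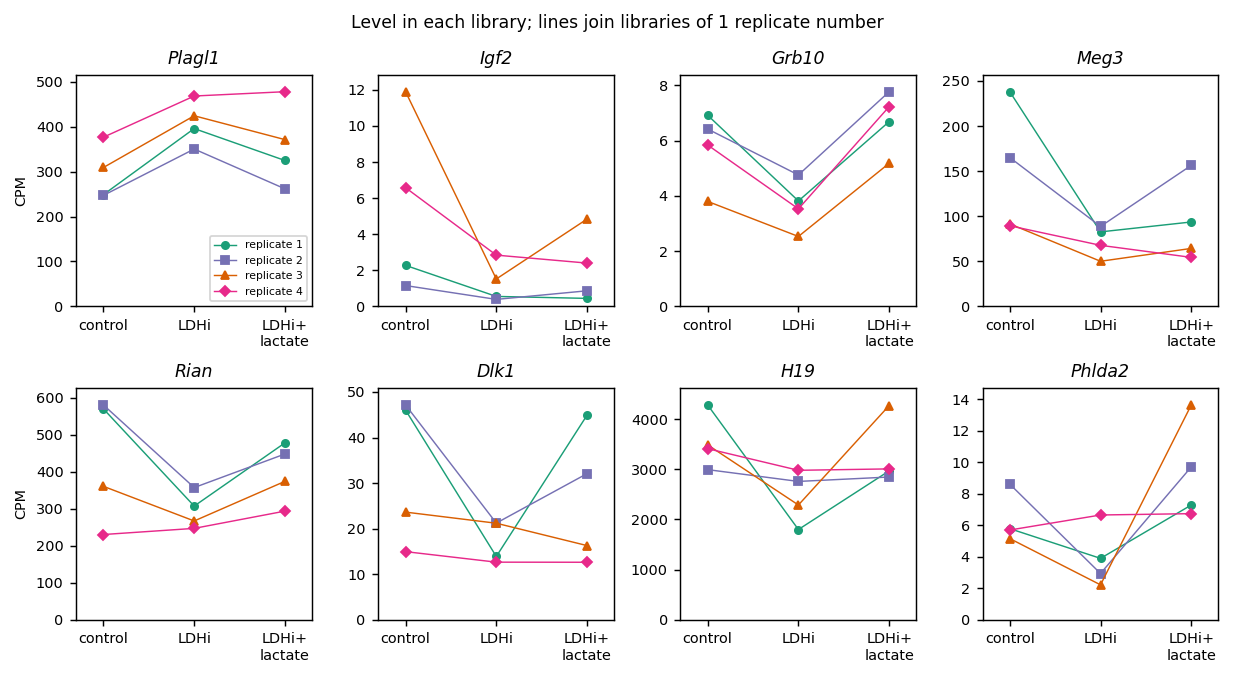
Level in CPM of 8 imprinted genes in each library by treatment, with lines joining libraries of 1 replicate number and axes that start at 0. LDHi is the lowest point of every line for Grb10, and every line rises from control to LDHi for Plagl1; H19, Dlk1 and Phlda2 were chosen after their values were seen.

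Against control, LDHi+lactate showed 0 of 34 imprinted genes called and 0% of all genes with the treatment alone in the model, with 1 of the 34 and 1653 of all genes at an unadjusted p under 0.05. DESeq2 called 1 of the 34 (2.94%), Ascl2, against 1.29% of all genes. With the block 3 of 34 (8.82%) were called, against 8.05% of all genes. Ascl2 held 1.27, 1.37, 1.27 and 1.39 CPM in control, 1.99, 1.21, 1.98 and 2.92 in LDHi and 1.98, 3.35, 3.43 and 2.67 in LDHi+lactate. Every LDHi+lactate library exceeded every control library, the 1 of 34 genes (2.94%) without overlap, against 4.23% of all genes. Its log2FC was 1.10 ± 0.28 (adjusted p = 0.3) and with the block 1.09 ± 0.27 (adjusted p = 0.0383). With the block Plagl1 was higher (0.27 ± 0.07, adjusted p = 0.0426) and Igf2 lower (-1.35 ± 0.34, adjusted p = 0.0409). Beside these values, 0 of 10 mesenchyme markers were called with the treatment alone in the model and 2 with the block, both lower, with a median log2FC of -2.14, and their summed level was 180 to 234 CPM in LDHi+lactate. Of 9 pluripotent cell markers, 0 were called with the treatment alone and 8 with the block, all higher, with a median log2FC of 0.94 and a summed level of 560 to 1176 CPM in LDHi+lactate. Their part in the values of Igf2, Plagl1 and Ascl2 was not tested. The calls of Ascl2 and Igf2 were lost without any 1 replicate number (adjusted p 0.0712 to 0.148 and 0.0528 to 0.155), and that of Plagl1 without replicate 1, 3 or 4 (up to 0.163). Leaving out 1 number turned the 1426 calls over all genes into 89 to 692. The median log2FC of the 34 genes was 0.00, as was that of all genes.

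The replicate numbers were compared within each set and all together. Each number holds 3 libraries, 1 of each treatment, which are not independent repeats of that number. The p-values of these tests measure the spread left between those libraries, not the spread between independent experiments. The median absolute log2FC of the 34 genes was 0.20 for replicate 2 against 1 and 0.23 for replicate 4 against 3, beside 0.21 for all genes in both. A test of the 3 replicate number terms together called 21 of 34 (61.8%), against 51.4% of all genes. The smallest adjusted p values were those of Ube3a (1.33e-05), Igf2r (0.000216), Mest (0.000253) and Cdkn1c (0.000437). H19, the most abundant, was not called (adjusted p = 0.78), with means of 3015, 2865, 3348 and 3132 CPM in replicates 1 to 4.

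Within the first set, replicate 2 against replicate 1 called 4 of 34 (11.8%), against 14.6% of all genes. Cdkn1c held 28.9, 23.9 and 31 CPM in the control, LDHi and LDHi+lactate libraries of replicate 1, 12.8, 12.8 and 19.7 in replicate 2, 9.49, 6.77 and 12.3 in replicate 3 and 20.4, 19.9 and 18.3 in replicate 4. All of replicate 2 lay below replicate 1, and all of replicate 4 lay above replicate 3. The log2FC was -0.91 ± 0.16 for 2 against 1 (adjusted p = 0.0136) and 1.07 ± 0.17 for 4 against 3 (adjusted p = 0.015). Mest held 2247, 1978 and 2125 CPM in replicate 1, 2764, 2631 and 2755 in replicate 2, 2044, 2345 and 2149 in replicate 3 and 1523, 1684 and 1663 in replicate 4. The libraries again did not overlap within either set, in the opposite order to Cdkn1c, with a log2FC of 0.36 ± 0.07 (adjusted p = 0.0157) for 2 against 1 and -0.42 ± 0.07 (adjusted p = 0.0163) for 4 against 3.

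Igf2r held 54.1, 54.4 and 54.8 CPM in replicate 1, 67.3, 58.2 and 88.4 in replicate 2, 104, 116 and 116 in replicate 3 and 94.2, 105 and 108 in replicate 4. Replicate 1 was nearly constant across treatments and lay below all of replicate 2, with a log2FC of 0.38 ± 0.11 for 2 against 1 (adjusted p = 0.0411). Ndn held 277, 281 and 259 CPM in replicate 1, 208, 216 and 209 in replicate 2, 303, 217 and 282 in replicate 3 and 309, 236 and 272 in replicate 4. Replicates 1 and 2 did not overlap, and the log2FC was -0.37 ± 0.10 for 2 against 1 (adjusted p = 0.0385). Replicate 4 against replicate 3 called 3 of 34 (8.82%), against 10.5% of all genes: Cdkn1c, Mest and Impact. Impact, an inhibitor of the translation kinase GCN2, held 296, 233 and 297 CPM in replicate 1, 331, 253 and 323 in replicate 2, 274, 332 and 368 in replicate 3 and 201, 244 and 267 in replicate 4. Replicates 3 and 4 did not overlap, with a log2FC of -0.45 ± 0.13 for 4 against 3 (adjusted p = 0.0464). In all 8 of 34 (23.5%) were without overlap between replicates 1 and 2 and 11 of 34 (32.4%) between 3 and 4, against 32.6% and 22.5% of all genes.

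**Figure D4:**
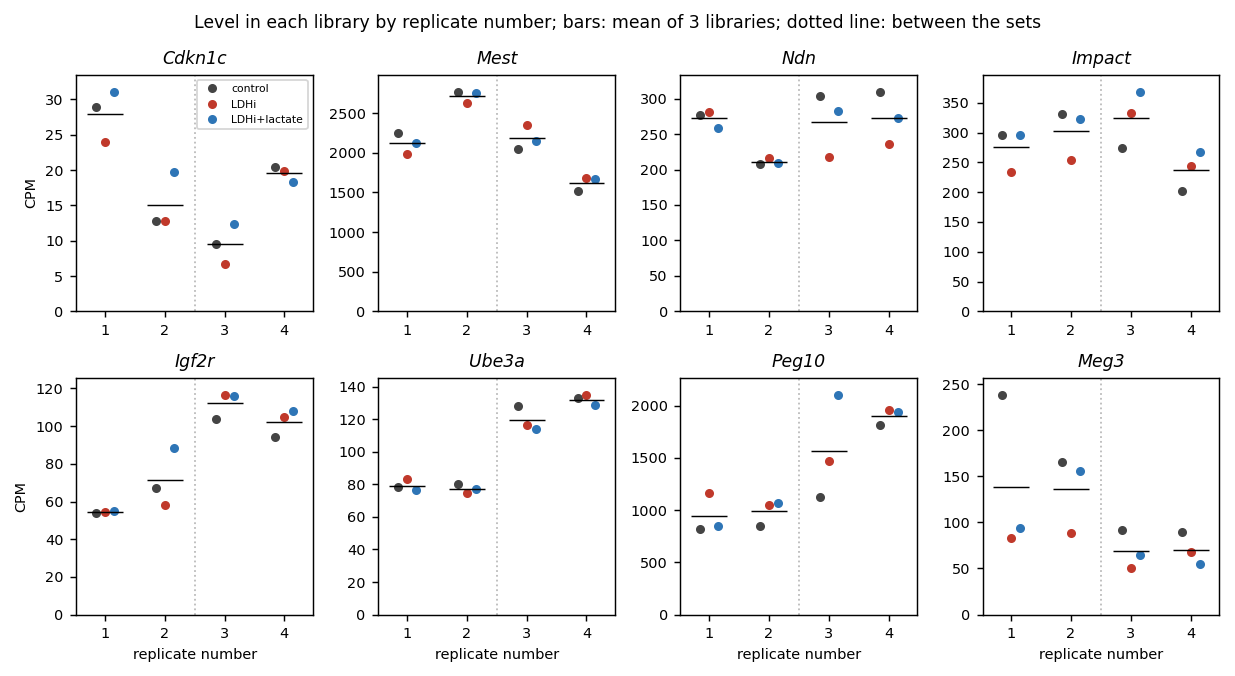
Level in CPM of 8 imprinted genes in each library by replicate number, with bars at the mean of the 3 libraries of a number, colours for the treatment and a dotted line between the sets; axes start at 0. Cdkn1c is higher in replicates 1 and 4 and Mest in 2 and 3 than in the other number of the set, and Ube3a in replicates 3 and 4 (114 to 135) lies above 1 and 2 (74.5 to 83.2).

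Each of these calls depended on few libraries, as did calls over all genes. For 2 against 1, the 2590 genes called became 126 to 247 without control 2, LDHi 1 or either LDHi+lactate library. They became 1911 without control 1 and 3228 without LDHi 2. For 4 against 3, the 1865 genes called became 19 to 57 without control 4, LDHi 3 or either LDHi+lactate library. Without control 3 the count was 1913 and without LDHi 4 it was 1432. Cdkn1c was no longer called for 2 against 1 without control replicate 2, LDHi replicate 1 or LDHi+lactate replicate 1 (adjusted p up to 0.071), nor for 4 against 3 without control replicate 4, LDHi replicate 3 or LDHi+lactate replicate 3 (up to 0.0694). Mest lost its call for 2 against 1 without control 2, LDHi 1, LDHi+lactate 1 or LDHi+lactate 2 (up to 0.0784), and for 4 against 3 without control 4, LDHi 3, LDHi+lactate 3 or LDHi+lactate 4 (up to 0.0724). Impact lost its call without the same libraries as Mest in that comparison (up to 0.193). Igf2r and Ndn kept theirs only when LDHi replicate 2 was the library left out (otherwise 0.0539 to 0.169 and 0.052 to 0.196). DESeq2 called all of these, among 5 of 34 (14.7%) for 2 against 1 and 7 of 34 (20.6%) for 4 against 3, against 20.7% and 16.7% of all genes.

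Markers of other cell types also moved between numbers. Of 8 neuron markers, 6 were lower in replicate 2 than 1 and 7 were higher in replicate 4 than 3, with a summed level of 318 to 874 CPM in replicate 1, 150 to 387 in 2, 144 to 249 in 3 and 474 to 919 in 4. Of 10 endoderm markers, 4 were higher in replicate 2 than 1 and 6 lower in replicate 4 than 3, with sums of 165 to 203, 474 to 568, 182 to 348 and 63 to 163 CPM in replicates 1 to 4. All 9 pluripotent cell markers were higher in replicate 2 than 1, and 0 were called for 4 against 3. No marker of these lists was under 1 CPM in all libraries. The part of these markers in the values of Cdkn1c, Mest, Ndn, Igf2r and Impact was not tested.

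The sets were compared on counts summed over the 3 treatments of each number, 2 summed profiles against 2, since libraries of a number are not independent. Of the 34 imprinted genes 0 were called, against 0.102% of all genes (18), while 15 of the 34 and 3169 of all genes had an unadjusted p under 0.05. With all 12 libraries in the model and no summing, 10 were called higher in the second set and 5 lower, which is 44.1% of 34 against 27.9% of all genes (13.7% higher and 14.3% lower). DESeq2 on the sums called 8 higher and 4 lower, which is 35.3% of 34 against 8.54% of all genes (4.82% higher and 3.71% lower). The 10 called higher in the 12-library model were Igf2, Igf2r, Peg3, Usp29, Peg10, Plagl1, Zrsr1, Snrpn, Ube3a and Gnas, and the 5 called lower were Meg3, Rian, Mirg, Dlk1 and Sgce.

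The differences on the sums given here are those of edgeR, which called none of them. DESeq2 on the sums called 12 of the 34 genes (35.3%, against 8.54% of all genes). In the Dlk1-Meg3 cluster all 5 members had a negative value, with a log2FC on the sums of -0.999 ± 0.09 for Meg3 (adjusted p = 0.0549), -0.62 ± 0.15 for Rian, -0.72 ± 0.20 for Mirg, -1.04 ± 0.23 for Dlk1 and -0.36 ± 0.40 for Rtl1, whose sign changed when replicate 4 was left out. Meg3 differed in the same direction within each treatment, by -1.16 ± 0.19 in control, -0.53 ± 0.17 in LDHi and -1.07 ± 0.26 in LDHi+lactate, with adjusted p of 0.14 to 0.226. Igf2 had the highest value, 2.39 ± 0.38 (adjusted p = 0.132), with 2.43 in control, 2.22 in LDHi and 2.47 in LDHi+lactate alone, and H19 in the same cluster one of 0.14 ± 0.11. Beside the Igf2 value, the 10 mesenchyme markers had a median log2FC of 1.56 with 0 called, and their summed level was 151 to 289 CPM in replicate 1, 174 to 190 in 2, 115 to 369 in 3 and 149.6 to 1073 in 4. Their part was not tested. Igf2r differed by 0.78 ± 0.15 (adjusted p = 0.153), and Airn by 0.14 ± 0.23.

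Ube3a held 78.5, 83.2 and 76.3 CPM in the control, LDHi and LDHi+lactate libraries of replicate 1, 80.3, 74.5 and 77.1 in replicate 2, 128, 117 and 114 in replicate 3 and 133, 135 and 129 in replicate 4. The sets lay far apart and the treatments close together, and the log2FC on the sums was 0.69 ± 0.09 (adjusted p = 0.106). Snrpn in the same cluster had one of 0.55 ± 0.13, and the 3 other members lay between 0.17 and 0.23. Snhg14, whose RNA runs antisense to Ube3a, overlaps 1803 of the 20626 exon bases of Ube3a. In the Peg3 cluster Peg3 (0.54 ± 0.12) and Usp29 (0.81 ± 0.16), which share a control region, had positive values and Zim1 one of -0.21 ± 0.27. In the Peg10 cluster Peg10 had 0.86 ± 0.12 (adjusted p = 0.113) and its neighbour Sgce, which starts beside it on the other strand, -0.30 ± 0.10. Asb4 in the same cluster had -0.37 ± 0.27. Gnas, the gene of a stimulatory G protein subunit, had 0.74 ± 0.19 and Nespas, a noncoding RNA of that cluster, -0.16 ± 0.32. In the Kcnq1 cluster the values ran from -0.55 ± 0.45 for Cdkn1c to 0.65 ± 0.59 for Slc22a18. Members of the Peg3, Peg10, Gnas and Kcnq1 clusters thus had values of both signs. However, the signs of Zim1, Asb4, Nespas and Slc22a18 changed in 1 to 4 of the alternative fits each. Peg3 lay at 617 to 942 CPM in the first set and 962 to 1428 in the second, Usp29 at 19.2 to 29.8 and 34.6 to 54.5, and Zrsr1, a splicing factor gene, at 21.3 to 27.8 and 28.8 to 32.9. The libraries of the sets did not overlap for Igf2r, Peg3, Usp29, Zrsr1 and Ube3a, all higher in the second set, which is 5 of 34 (14.7%) against 12.3% of all genes in either direction and 5.62% higher.

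**Figure D5:**
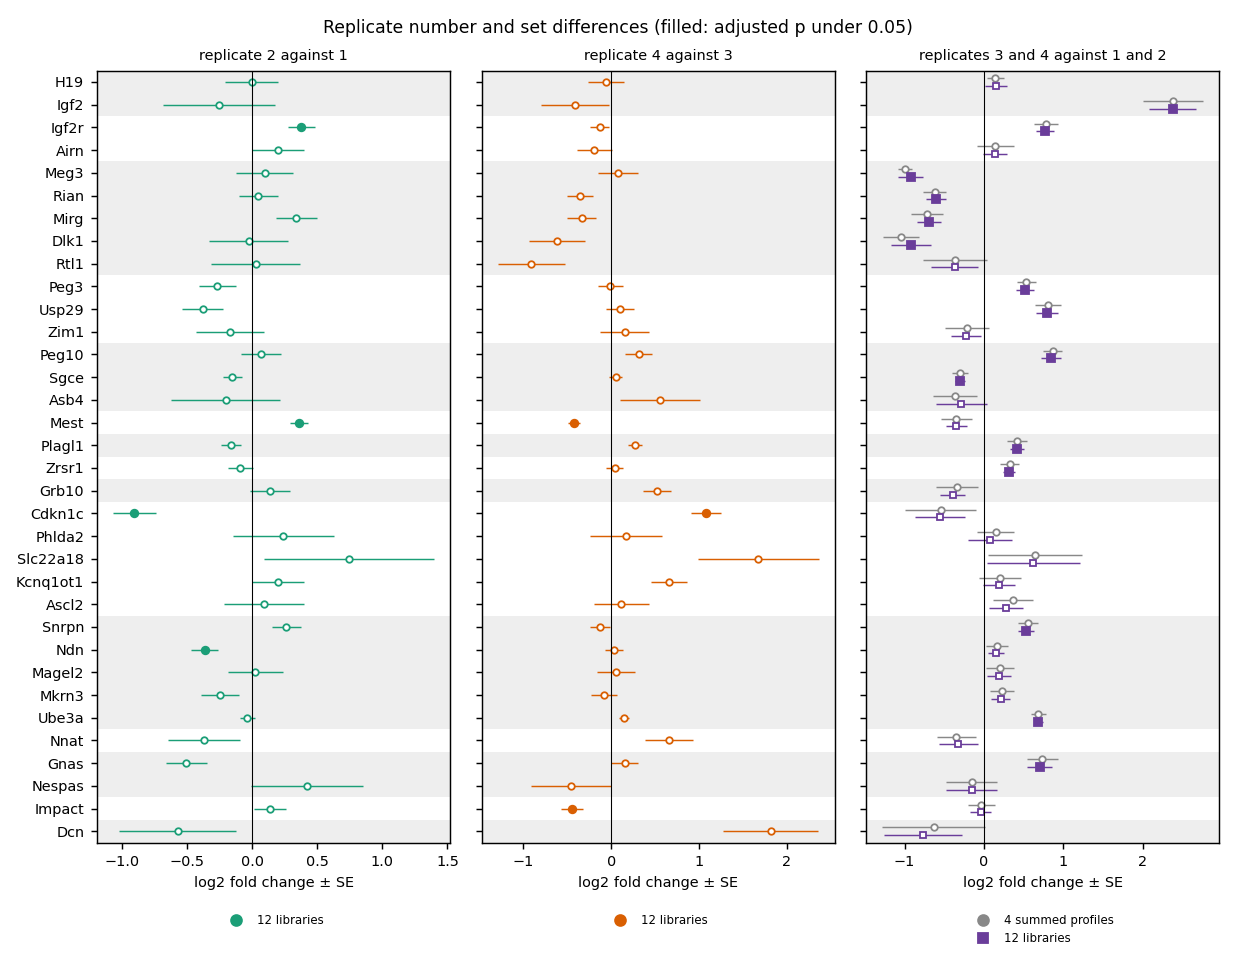
Log2 fold change ± SE of the 34 imprinted genes for replicate 2 against 1, replicate 4 against 3 and the second set against the first, the last on 4 summed profiles (grey circles) and on 12 libraries (purple squares); filled symbols mark an adjusted p under 0.05, and the horizontal axes differ. All 5 genes of the Dlk1-Meg3 cluster lie left of 0 for the sets, and 15 squares but no circle are filled.

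Whether the treatment differences themselves differed between the sets was tested with an interaction term. For LDHi against control 0 of 34 imprinted genes and 0% of all genes were called, where 4 of the 34 and 694 of all genes had an unadjusted p under 0.05. In the comparison of LDHi+lactate with LDHi 0 of 34 and 0% of all genes were called, with 1 of the 34 and 239 of all genes at that level. The member was Dlk1, whose difference between the sets was 1.22 ± 0.46 for LDHi against control (adjusted p = 0.89) and -1.36 ± 0.46 for LDHi+lactate against LDHi (adjusted p = 1). DESeq2 called 0 of the 34 genes in either case, against 0.0451% and 0% of all genes.

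Genes of imprint maintenance and of DNA methylation, both its upkeep and its removal, were examined beside the imprinted genes. Of 21 such genes, 1 rose in LDHi against control with the treatment alone in the model (4.76%, against 3.09% of all genes). It was Dppa3, which protects maternal methylation in the egg (log2FC 1.47 ± 0.35, adjusted p = 0.0416). With the block 10 rose and 0 fell (47.6%, against 19.9% of all genes called). They included Tet1, which oxidizes methylated cytosine (0.71 ± 0.11, adjusted p = 0.00159), and Trim28, the partner of ZFP57 (0.32 ± 0.05, adjusted p = 0.00306). The list had a median log2FC of 0.20, and its summed level was 4082 to 4615 CPM in control and 4683 to 5350 in LDHi. With the block 3 of 21 (14.3%, against 8.05% of all genes) were called in LDHi+lactate against control, all higher. In LDHi+lactate against LDHi 0 of 21 were called with the block, against 0.638% of all genes. Pluripotent cell markers rose in the same comparison, 4 of 9 with the treatment alone in the model and 9 of 9 with the block, from 272 to 564 CPM in control to 628 to 1178 in LDHi. Their part in the values of Dppa3, Tet1 and the imprinted genes was not tested. Of the 9 eye and anterior neural plate markers, 1 was called higher and 4 lower in LDHi (1 and 8 with the block). With the treatment alone in the model, 0 of 8 neuron and 0 of 10 endoderm markers were called there, and with the block 0 and 2, both higher.

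A further 53 imprinted genes were listed, of which 42 were tested and 12 stayed under 1 CPM in every library, Ins2, Calcr and Rasgrf1 among them. In LDHi against control 0 of 42 were called with the treatment alone in the model, and with the block 2 were higher and 6 lower (19%, against 19.9% of all genes), among them Htr2a, a serotonin receptor gene (-1.69 ± 0.32, adjusted p = 0.00521), and Osbpl5 of the Kcnq1 cluster (-0.43 ± 0.10, adjusted p = 0.0131). In LDHi+lactate against LDHi 0 were called in either fit. In LDHi+lactate against control 0 were called with the treatment alone in the model and 4 with the block, all lower (9.52%, against 8.05% of all genes). The replicate numbers differed for 26 of 42 (61.9%, against 51.4% of all genes). In replicate 2 against 1, 2 were higher and 7 lower (21.4%, against 14.6%), in replicate 4 against 3, 2 were higher and 1 lower (7.14%, against 10.5%), and 0 were called between the sets on the sums.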

How the data were processed

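RNA was sequenced with 50 bp reads from 12 organoid samples. Per the submitters' notes, the authors used cutadapt 1.13 for trimming, STAR for alignment to mm10 and HTSeq 0.6.1p1 for counting, and they deposited the raw counts of each library per Ensembl gene, with no normalization. The study's own tests used DESeq2 1.14.1. No source used here gives the STAR version, the annotation or whether reads were counted by strand. Symbols, positions and exon lengths were taken by gene ID from GENCODE vM21 (GRCm38).

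The imprinted genes and all gene lists were chosen with earlier results of these data known. Counts were fitted with edgeR 4.0.16 in R 4.3.3 (TMM, filterByExpr, quasi-likelihood test, all 12 libraries in 1 model, treatment only), with Benjamini-Hochberg adjustment over 17721 genes and calls under 0.05. The steps were tested on simulated counts with known changes. Replicate numbers were tested in a model of treatment and number, and the sets on counts summed per number. Libraries of the same number correlated in their deviations from the group means by 0.329 to 0.634 over 12 pairs, against -0.22 to 0.197 for other numbers of a set and -0.544 to 0.172 between sets. The numbers are thus taken to pair the libraries, which no source states, and the replicate block is an alternative. Others were DESeq2 1.42.0, RLE size factors, other filters, each set alone or the set as a term, only the groups compared and libraries left out. Those for the test of all replicate numbers were added after the data were seen.

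All imprinted genes are accounted for, most by cluster. Values of every library are given for those that edgeR called, at a mean log2 CPM not below 0. Counted were calls in a treatment comparison (with or without the block), in replicate 2 against 1 or 4 against 3, or between the sets on the sums. Genes called only by the 12-library model of the sets or by the test of all replicate numbers were not chosen by this rule. Ube3a, given in full, and Peg10, drawn with it by replicate number, were taken outside the rule. So were H19, Dlk1 and Phlda2, chosen after their values were seen. Of each other list, up to 3 called genes are named. Figures were drawn with matplotlib 3.10.9.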

Additional observations from a re-analysis of the deposited data

How the results depend on the processing

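With the treatment alone in the model, no imprinted gene was called in any treatment comparison under RLE size factors, either other filter, each set alone, only the groups compared or without any 1 library. The replicate block, which takes the replicate numbers as pairing the libraries, called 1 gene higher and 4 lower in LDHi against control, 1 higher in LDHi+lactate against LDHi, and 2 higher and 1 lower in LDHi+lactate against control. Leaving out 1 replicate number with the block gave 1 to 2 higher and 3 to 5 lower in the first of these, 0 in the second, and 0 to 1 higher and 0 to 1 lower in the third. Some of these fits called genes that the full blocked fit did not. In LDHi against control these included H19, Mirg and Gnas, all lower (lowest adjusted p 0.0475, 0.0364 and 0.0299). Meg3 was called lower in LDHi+lactate against control (lowest adjusted p 0.0446). The set as a term gave 1 higher (Plagl1) and 2 lower (Igf2 and Meg3) in LDHi against control, and DESeq2 gave 1 higher (Ascl2) in LDHi+lactate against control.

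For replicate 2 against 1 (2 higher, 2 lower), no filter gave 5 lower, and leaving out 1 library gave 0 to 3 higher and 0 to 4 lower. For replicate 4 against 3 (1 higher, 2 lower), no filter gave 7 higher, at least 10 counts in every library 2 higher and DESeq2 5 higher, and leaving out 1 library gave 0 to 2 higher and 0 to 2 lower. The test of all replicate numbers called 18 to 21 genes without 1 library. Between the sets, 12 libraries with treatment and set as terms gave 10 higher and 5 lower and DESeq2 on the sums 8 higher and 4 lower, against 0 on the sums with edgeR. The sign of the log2 fold change differed in at least 1 alternative for 17 of the 34 genes in LDHi against control, 22 when lactate was added to the inhibitor and 17 in LDHi+lactate against control, 14 and 13 for replicates 2 against 1 and 4 against 3, and 13 between the sets. No gene called in that comparison was among them, with the block and the 12-library model included. Among the uncalled genes was Gnas in LDHi against control, with -0.42 over all libraries and 0.00127 in replicates 1 and 2 alone. The block turned 1, 1 and 2 signs in the 3 treatment comparisons, Slc22a18 in each. The causes were not tested. Counts under about 1 CPM (Kcnq1, Dcn, Rtl1) limit what could be detected.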
